A study of Mus musculus with 6 samples.

Results

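The genes described here are 6 ion channel genes with known roles in brown adipocytes, Otop1, Kcnk3, Trpv2, Piezo1, Lrrc8a and Trpm7. The set was chosen by symbol with the KO minus WT differences of these same libraries known, and all 6 are among the 19241 genes of the table and among the 13331 that were tested. Bulk RNA sequencing was done on whole interscapular brown fat, the depot between the shoulder blades, of mice at birth. The 3 WT libraries came from mice labelled as Fstl1-floxed, and the 3 KO libraries from mice labelled Myf5-Fstl1 KO, in which Fstl1 was removed from the lineage that expresses Myf5. The labels do not say whether WT mice also carried the Myf5 driver, nor how many animals gave each library, and they name no strain and no treatment. The Myf5 lineage gives rise to skeletal muscle as well as to much of this depot, so the deletion is not limited to brown adipocytes.

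Ion channels set the membrane potential, the pH and the calcium signals of a brown adipocyte, the cell that burns fuel for heat through Ucp1. Otop1 encodes otopetrin 1, a proton-selective channel best known from sour taste cells and the vestibular organ. Kcnk3 encodes TASK-1, an acid-sensitive background potassium channel that holds the membrane at rest. Trpv2 and Trpm7 encode cation channels of the TRP superfamily; TRPV2 passes calcium and TRPM7 passes magnesium and calcium and carries a kinase domain. Piezo1 encodes a channel opened by stretch of the membrane. Lrrc8a encodes SWELL1, the obligatory subunit of the anion channel that opens when a cell swells and that also contains LRRC8B, LRRC8C, LRRC8D or LRRC8E.

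The targeted gene was low where the labels say so: Fstl1 ranged over 54.4 to 130.04 FPKM (fragment counts corrected for transcript length and library size) in WT, against 7.93 to 13.1 FPKM in KO. Xist was at 44.8 to 85.5 FPKM in WT and at 0.05 to 0.92 FPKM in KO. The Y-linked genes Eif2s3y, Ddx3y, Uty and Kdm5d were at 7.39 to 99.3 FPKM in KO and at no more than 0.23 FPKM in WT. Sex and genotype therefore cannot be told apart in any difference between the groups given here. The spacing of low FPKM values put depth at 13900000 to 15150000 reads for a library. At that depth Trpv2 rested on about 54 to 93 reads per library and each of the other 5 genes on at least 564. In bulk RNA, fewer cells of a type and less RNA per cell cannot be told apart.

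Because these genes were selected on a contrast whose results were known, the differences of the 6 genes are a description with an error and no p-value. They are log2 differences of FPKM + 1 with the standard error (SE) of a limma fit over all tested genes. In that fit 2 of the 6 genes lay past an adjusted p of 0.05, Otop1 in the lower and Lrrc8a in the higher direction, where 2.21% of all tested genes did, 1.21% higher and 1.01% lower. Over 17 alternative fits the call held in 17 for Lrrc8a and in 12 for Otop1, and Trpm7 gained it in 2. As the choice of the genes used this contrast, nothing is read from these counts. KO and WT values did not overlap in 4 of the 6, where this held for 24.9% of all tested genes, 13.6% above WT and 11.4% below: Otop1 and Piezo1 lay below WT, and Lrrc8a and Trpm7 above it. Kcnk3 and Trpv2 overlapped. The median log2 difference was −0.004 over the 6 genes and 0.01 over all tested genes. The genes on either side of the adjusted p threshold were Otop1 at −1.52 inside it and Trpm7 at 0.64 outside it.

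**Figure D1:**
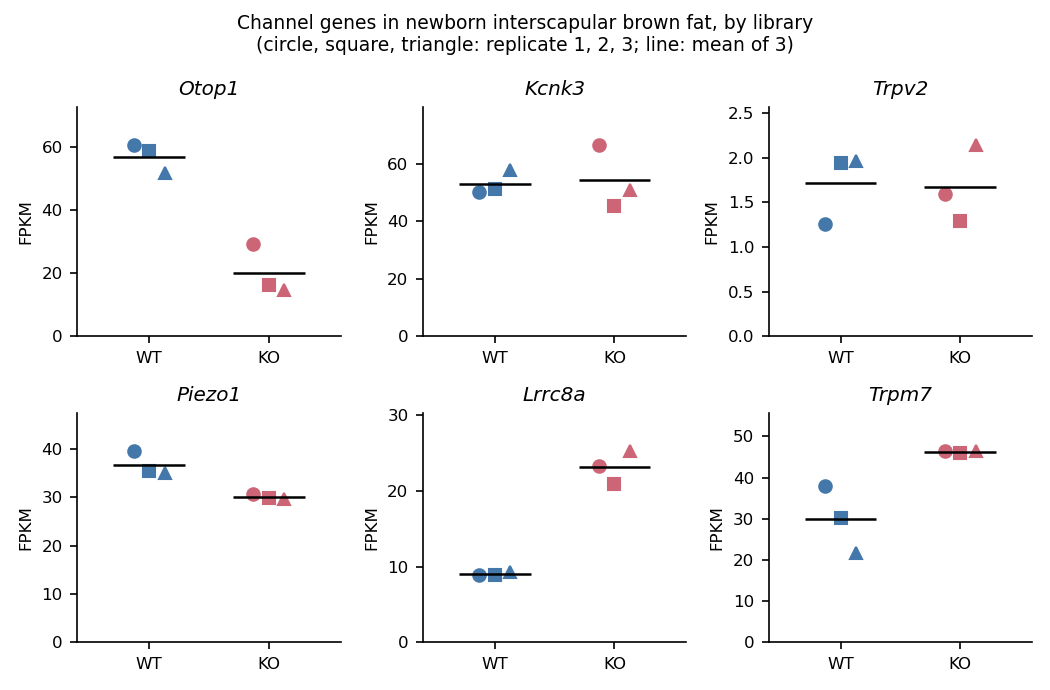
FPKM of the 6 channel genes in each of 3 WT (blue) and 3 KO (red) libraries, with a line at each group's mean and a y axis that starts at 0 in each panel. Otop1 went from a mean of 57.0 to 20.1 FPKM and Lrrc8a went from 9.04 to 23.1 FPKM, while the values of Kcnk3 and Trpv2 overlapped.

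The stretches upstream of the annotated starts of Otop1, Lrrc8a and Trpm7 are shown because these genes had the largest differences, the first lower and the other two higher in KO. They are read 5′ to 3′ on the gene's own strand from the RefSeq promoter table of GRCm38.p6, the assembly also called mm10, which held such a stretch for 5 of the 6 genes. Capitals mark matches, on either strand, to the letters searched. The cAMP response element was searched as TGACGTCA, the E-box of basic helix-loop-helix factors as CACGTG, the GC box of the Sp factor family as GGGCGG, the site of ETS family factors as CCGGAAG, and the TATA box of core promoters as TATAAA. The PPAR element, a direct repeat of the nuclear receptor half-site, is given by name only. The Otop1 stretch is chr5:38277154-38277403 on the plus strand. In GENCODE vM21 the Otop1 gene begins further upstream, at 38275972, so this stretch lies inside that gene model. The Lrrc8a stretch is chr2:30237519-30237714 on the plus strand and ends before the first exon of GENCODE vM21, which begins 54 bases upstream of the RefSeq start. The Trpm7 stretch is chr2:126876262-126876511 on the minus strand.
Otop1: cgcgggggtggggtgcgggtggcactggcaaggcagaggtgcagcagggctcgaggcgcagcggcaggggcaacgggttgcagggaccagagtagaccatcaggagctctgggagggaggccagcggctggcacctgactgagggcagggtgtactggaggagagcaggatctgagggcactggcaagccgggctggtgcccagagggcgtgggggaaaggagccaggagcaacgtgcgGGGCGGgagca
Lrrc8a: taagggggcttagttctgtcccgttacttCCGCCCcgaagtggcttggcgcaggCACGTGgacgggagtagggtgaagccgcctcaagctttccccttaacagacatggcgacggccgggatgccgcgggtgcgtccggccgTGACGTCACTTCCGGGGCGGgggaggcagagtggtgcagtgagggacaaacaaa
Trpm7: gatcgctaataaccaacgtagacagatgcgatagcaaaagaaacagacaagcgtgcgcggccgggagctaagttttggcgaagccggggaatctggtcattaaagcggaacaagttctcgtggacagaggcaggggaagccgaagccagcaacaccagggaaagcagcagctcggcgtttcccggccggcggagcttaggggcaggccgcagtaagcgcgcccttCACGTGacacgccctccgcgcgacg

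Matches were counted over the 250 bases before the RefSeq start. The Lrrc8a window held 1 cAMP response element, 1 E-box, 1 ETS site directly after the cAMP response element, and 3 GC boxes, of which 1 lies in the 54 bases not shown and another overlaps the ETS site. The Trpm7 window held 1 E-box and the Otop1 window 1 GC box, and the PPAR element was in none of the 3. Over all 32817 such windows, 1.55% held the cAMP response element, 6.02% the E-box, 6.91% the ETS site, 12.4% the TATA box, 32.7% the GC box and 0.0335% the PPAR element. The windows of Lrrc8a and Trpm7 held 25 and 26 CpG dinucleotides and that of Otop1 held 13, where the median window held 6. A match describes the letters and does not show that a factor binds there.

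Per transcript length, Otop1 and Kcnk3 were the most abundant of the 6 in WT, at 57.0 ± 4.71 and 53.0 ± 4.23 FPKM (SD, n = 3), and their ranges overlapped. Piezo1 at 36.6 ± 2.50 FPKM and Trpm7 at 30.0 ± 8.16 FPKM followed, also with overlapping ranges. Lrrc8a at 9.04 ± 0.231 FPKM and Trpv2 at 1.72 ± 0.398 FPKM lay below and apart from the others. In KO the order was Kcnk3 at 54.3 ± 10.9 FPKM, Trpm7 at 46.3 ± 0.220, Piezo1 at 30.0 ± 0.564, Lrrc8a at 23.1 ± 2.13, Otop1 at 20.1 ± 8.14 and Trpv2 at 1.67 ± 0.431 FPKM. There the ranges of Kcnk3 and Trpm7 overlapped, as did those of Lrrc8a and Otop1. The mean of Otop1 stood above 89.5% of tested genes in WT and above 72.8% in KO, and that of Lrrc8a above 52.7% and 75.9%.

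Otop1 (Entrez gene 21906), the proton channel gene, lies on chromosome 5 from 38277404 to 38304217 on the plus strand (RefSeq, GRCm38.p6). In WT replicates 1 to 3 its level was 60.6, 58.7 and 51.7 FPKM, against 29.5, 16.2 and 14.7 FPKM in KO replicates 1 to 3. Every KO library was below every WT library, and KO replicate 1, which also stood apart by its low sum of skeletal muscle markers (349 FPKM against 1363 to 1979 FPKM in the other 5 libraries), lay nearest to WT. The KO mean was 35.2% of the WT mean, a log2 difference of −1.52 (SE 0.24). Leaving out KO replicate 1 made it −1.82, and the other single libraries left out gave no value beyond −1.34 at the other end. Its paralog Otop2 was at no more than 0.03 FPKM in any library.

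Otop1 was set beside 16 marker genes of brown adipocytes. Of these 3 passed an adjusted p of 0.05, all lower, against 2.21% of all tested genes, with a median log2 difference of −0.28. The log2 difference was negative in 10 of the 16 and positive in 6, with Ppargc1a highest at 147% of its WT mean. Elovl3, a fatty acid elongase gene, kept 17.6% of its WT mean (limma, adjusted p 0.0151). The lipid droplet coat genes Plin1 and Plin5 kept 37.9% and 39.0% (limma, adjusted p 0.0267 and 0.0435). Prdm16, a regulator of brown fat identity, was at 46.0% and Ucp1 at 48.9% of the WT mean without passing (limma, adjusted p 0.0519 and 0.0804). Fabp4, the adipocyte fatty acid binding protein gene, was at 95.1%, and Adipoq, the adiponectin gene, at 118%; the values of both overlapped between groups. Since the markers did not move together, the level of Otop1 relative to them depended on the marker. These 5 reference genes were chosen with their values known. Per 1000 FPKM of Fabp4, Otop1 went from 3.64 ± 0.586 in WT to 1.32 ± 0.465 in KO (SD, n = 3), and per 1000 FPKM of Adipoq from 59.6 ± 10.5 to 17.7 ± 7.22. Per 1000 FPKM of Ucp1 it was 10.6 ± 2.94 in WT and 7.92 ± 3.34 in KO, and per 1000 FPKM of Plin1 247 ± 88.1 and 213 ± 63.2. In both of these ratios the groups overlapped. Per 1000 FPKM of Prdm16, Otop1 went from 12009 ± 486 to 9033 ± 685, and the groups did not overlap.

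**Figure D2:**
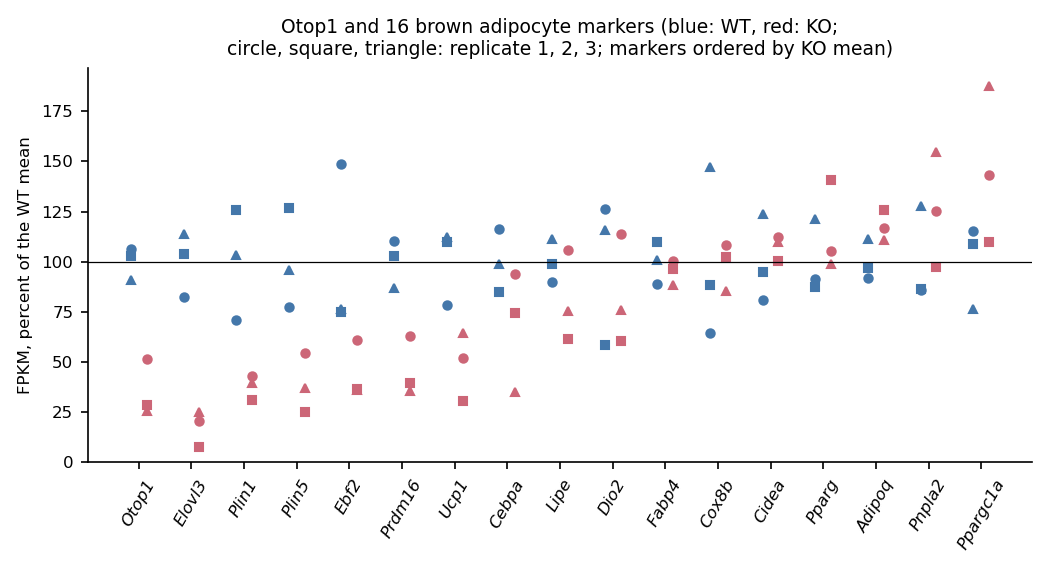
FPKM of Otop1 and of 16 brown adipocyte markers in each WT (blue) and KO (red) library, as a percent of the gene's WT mean, with the markers ordered by their KO mean. The KO means run from 17.6% for Elovl3 to 147% for Ppargc1a. Otop1, drawn first, is at 35.2%, and the marker nearest to it in value is Plin1 at 37.9%.

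Lrrc8a (241296), the swelling-activated anion channel gene, lies on chromosome 2 from 30237769 to 30263790 on the plus strand. In WT replicates 1 to 3 its level was 8.92, 8.90 and 9.31 FPKM, against 23.2, 21.0 and 25.2 FPKM in KO replicates 1 to 3. The groups lay far apart and each was narrow. The KO mean was 2.56 times the WT mean, a log2 difference of 1.26 (SE 0.14), with values of 1.2 to 1.35 over 17 alternatives. In GENCODE vM21 its exons share 2853 of their 4308 bases with Gm28035, a protein-coding model on the same strand that is not a row of the table. They share 91 bases with those of the antisense gene 1700084E18Rik. Reads from the part shared with Gm28035 cannot be told apart, so the level given for Lrrc8a may hold both. Phyhd1, the next gene on that strand, was at 12.1 ± 1.03 FPKM in WT and 17.4 ± 0.721 FPKM in KO (SD, n = 3; limma, log2 difference 0.49, adjusted p 0.099).

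Of the 3 other tested subunits of the same channel 0 passed in limma, and 1, Lrrc8d, had an unadjusted p under 0.05, against 19.2% of all tested genes. Lrrc8d read 16.5, 18.8 and 18.6 FPKM in the WT libraries, against 12.7, 11.9 and 10.1 FPKM in KO. All its KO values lay below all WT values, as in 11.4% of all tested genes. Its log2 difference of −0.60 did not pass (limma, SE 0.15, adjusted p 0.0711). Lrrc8c was at 8.26 ± 1.96 FPKM in WT and 10.2 ± 0.895 FPKM in KO (SD, n = 3; limma, log2 difference 0.29, adjusted p 0.414). Lrrc8b was at 2.48 ± 0.852 and 3.15 ± 0.095 FPKM (limma, log2 difference 0.28, adjusted p 0.466), and Lrrc8e was below the filter, at a mean of 0.22 FPKM over the 6 libraries. Lrrc8a made up 21.4% to 25.7% of the summed FPKM of the 5 genes in WT libraries and 45.8% to 52.0% in KO libraries. Lrrc8d made up 45.0% to 51.4% in WT and 20.8% to 26.0% in KO. The sum itself was 37.9 ± 3.26 FPKM in WT and 48.3 ± 2.39 FPKM in KO (SD, n = 3). By these listed levels Lrrc8d was the most abundant of the 5 in WT and Lrrc8a in KO. The shares, the sum and this order use the level given for Lrrc8a, which may also hold reads of Gm28035.

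**Figure D3:**
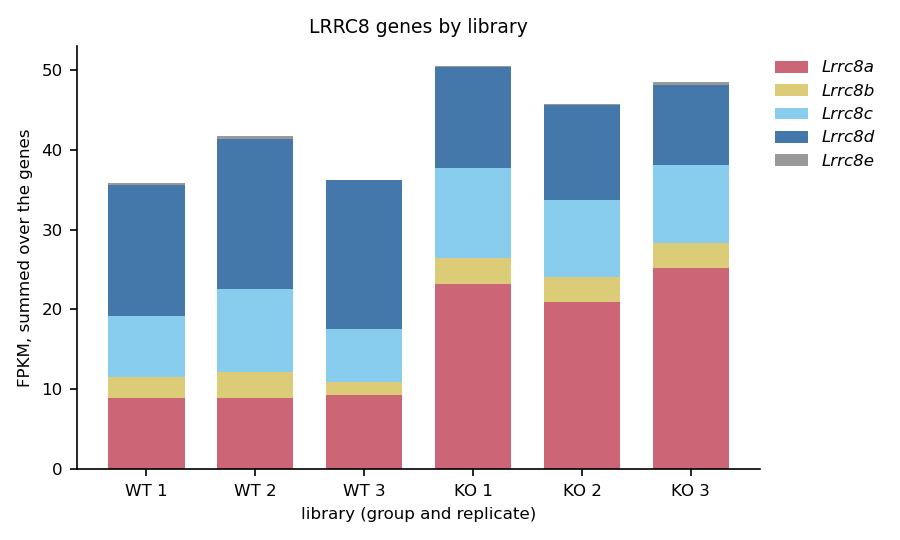
FPKM of the 5 LRRC8 genes stacked by library, with the 3 WT libraries on the left and the 3 KO libraries on the right. The Lrrc8a segment is 8.90 to 9.31 FPKM high in WT and 21.0 to 25.2 FPKM high in KO, while the Lrrc8d segment is shorter in all 3 KO libraries than in WT.

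Trpm7 (58800), the channel-kinase gene, lies on chromosome 2 from 126791558 to 126876261 on the minus strand. In WT replicates 1 to 3 its level was 38.1, 30.3 and 21.7 FPKM, against 46.4, 46.0 and 46.4 FPKM in KO replicates 1 to 3. The KO libraries were nearly equal and all above WT, whereas the WT libraries spread widely. The KO mean was 1.54 times the WT mean, a log2 difference of 0.64 (SE 0.20). The size rested on single WT libraries: it was 0.44 without WT replicate 3 and 0.83 without WT replicate 1. WT replicate 3, the library lowest in Trpm7, also had the highest summed FPKM of 11 erythroid markers, 14409 against 3079 to 5078 in the other 5 libraries; the part of this in the result was not tested. It made up 90.1% to 94.7% of the summed FPKM of 8 TRPM genes in WT and 94.1% to 96.3% in KO, and Trpm4, a calcium-activated cation channel gene, was next at 1.37 ± 0.388 and 1.21 ± 0.476 FPKM (SD, n = 3).

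Piezo1 (234839), the stretch-activated channel gene, lies on chromosome 8 from 122481698 to 122551329 on the minus strand. In WT replicates 1 to 3 its level was 39.5, 35.4 and 35.0 FPKM, against 30.7, 29.8 and 29.6 FPKM in KO replicates 1 to 3. All KO values lay under all WT values, by a small margin. The KO mean was 82.0% of the WT mean, a log2 difference of −0.28 (SE 0.13, 95% interval −0.57 to 0.02). Its exons share 2441 bases with those of Ctu2 on the opposite strand; strand handling is not given in the sources used here, so reads from the shared part cannot be told apart. Ctu2 was at 5.43 ± 0.947 FPKM in WT and 4.39 ± 0.801 FPKM in KO (SD, n = 3; limma, log2 difference −0.26, adjusted p 0.462). Piezo2, its paralog, was at 1.15 ± 0.234 FPKM in WT and 1.59 ± 0.301 FPKM in KO (limma, log2 difference 0.27, adjusted p 0.407).

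Kcnk3 (16527), the background potassium channel gene, lies on chromosome 5 from 30588170 to 30625270 on the plus strand. In WT replicates 1 to 3 its level was 50.02, 51.10 and 57.83 FPKM, against 66.4, 45.4 and 50.9 FPKM in KO replicates 1 to 3. The KO libraries enclosed the WT range, with KO replicate 1 highest of the 6. The log2 difference was 0.02 (SE 0.17), with a 95% interval of −0.36 to 0.40, which leaves room for a change of modest size either way. It ranged from −0.13 without KO replicate 1 to 0.15 with array weights. Its exons share 229 bases with those of Gm9899 on the opposite strand, which was at 20.4 ± 5.85 FPKM in WT and 18.0 ± 5.97 FPKM in KO (SD, n = 3). Of the 11 genes of its family in the table, Kcnk3 made up 92.6% to 93.9% of the summed FPKM in WT and 91.6% to 94.8% in KO. Kcnk6 was next, at 2.46 ± 0.265 and 2.64 ± 0.225 FPKM (SD, n = 3; limma, log2 difference 0.07, adjusted p 0.829), and the other 9 had means of no more than 0.312 FPKM over the 6 libraries.

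Trpv2 (22368), the calcium-permeable cation channel gene, lies on chromosome 11 from 62574486 to 62600305 on the plus strand. In WT replicates 1 to 3 its level was 1.26, 1.94 and 1.96 FPKM, against 1.59, 1.29 and 2.14 FPKM in KO replicates 1 to 3. The values interleaved. The log2 difference was −0.03 (SE 0.18, 95% interval −0.44 to 0.38) and changed sign between single libraries left out, from −0.15 to 0.08. Trpv2 made up 47.4% to 60.7% of the summed FPKM of 5 TRPV genes in WT and 45.3% to 58.5% in KO. Trpv4 was the other TRPV gene that passed the filter, at 0.993 ± 0.108 FPKM in WT and 1.17 ± 0.165 FPKM in KO (SD, n = 3; limma, log2 difference 0.12, adjusted p 0.691).

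Macrophages and endothelium are also known to express Trpv2 and Piezo1, and the depot contains both. All 12 macrophage markers had a positive log2 difference, 0 passed an adjusted p of 0.05 in limma and 6 had an unadjusted p under 0.05, where 19.2% of all tested genes had one, with a median of 0.41. In 7 of the 12 every KO value lay above every WT value, as in 13.6% of all tested genes. Their summed FPKM was 145 to 213 in WT and 205 to 280 in KO. Of 10 endothelial markers 0 passed and 2 had an unadjusted p under 0.05 (limma), with a median of −0.10, and the sum was 632 to 881 FPKM in WT and 647 to 727 FPKM in KO. All 15 skeletal muscle markers had a negative log2 difference, 0 passed and 2 had an unadjusted p under 0.05 (limma), with a median of −0.59. Their sum was 349 FPKM in KO replicate 1 and 1363 to 1979 FPKM in the other 5 libraries. Without KO replicate 1 the log2 difference of Otop1 went from −1.52 to −1.82 and that of Kcnk3 from 0.02 to −0.13. That of Trpv2 was then −0.01, of Piezo1 −0.29, of Lrrc8a 1.26 and of Trpm7 0.64.

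Among 8 smooth muscle and pericyte markers 1 passed, Cspg4, which was lower (limma, adjusted p 0.0435), where 1.01% of all tested genes were called lower. Of the 8, 3 had an unadjusted p under 0.05 (limma), against 19.2% of all tested genes. In 4 every KO value lay below every WT value, as in 11.4% of all tested genes. The 8 had a median of −0.34 and a sum of 122 to 156 FPKM in WT and 102 to 115 FPKM in KO. Among 9 preadipocyte and fibroblast markers 1 passed, Ly6a, which was higher (limma, adjusted p 0.0332), where 1.21% of all tested genes were called higher. The 9 had a median of 0.32 and a sum of 1292 to 1655 FPKM in WT and 1370 to 2282 FPKM in KO. Of 10 tested erythroid markers and 7 Schwann cell markers 0 passed and 0 had an unadjusted p under 0.05 (limma), with medians of −0.51 and −0.06. The Schwann cell sum was 73.5 to 78.5 FPKM in WT and 59.6 to 85.1 FPKM in KO, and the erythroid sum 3387 to 14409 FPKM and 3079 to 3972 FPKM. The brown adipocyte sum, of which Fabp4 is the largest term, was 23933 to 30804 FPKM in WT and 23591 to 26158 FPKM in KO and overlapped. The mean of log2(FPKM + 1) over the same 16 genes did not overlap, at 7.92 to 8.12 in WT and 7.29 to 7.73 in KO. No marker of brown adipocytes, skeletal muscle, macrophages or endothelium was at 0 throughout a group, and 1 erythroid marker was, Hbb-b2, at no more than 0.02 FPKM. The part of these cell types in the differences of the 6 genes was not tested.

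The other channel genes, with some transporters and pumps that handle the same ions, came to 196 listed genes, of which 187 were in the table and 90 were tested; the 97 others had means of no more than 0.46 FPKM. Of the 90, 0 were higher and 1 was lower past an adjusted p of 0.05, which is 1.11% against 2.21% of all tested genes. An unadjusted p under 0.05 was found for 13 of them, where 19.2% of all tested genes had one, and the groups did not overlap in 15, 6 higher and 9 lower in KO, or 16.7% against 24.9% of all tested genes. Their median log2 difference was 0.01. The gene that passed was Tpcn1, which encodes a cation channel of endosomes and lysosomes. It fell from 21.5, 28.2 and 29.1 FPKM in WT to 15.8, 14.6 and 12.9 FPKM in KO, a log2 difference of −0.81 (limma, SE 0.16, adjusted p 0.0423). The call ended without WT replicate 2 or 3, without any 1 of the KO libraries, without the filter and with the replicate block, at adjusted p of 0.0743 to 0.183.

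**Figure D4:**
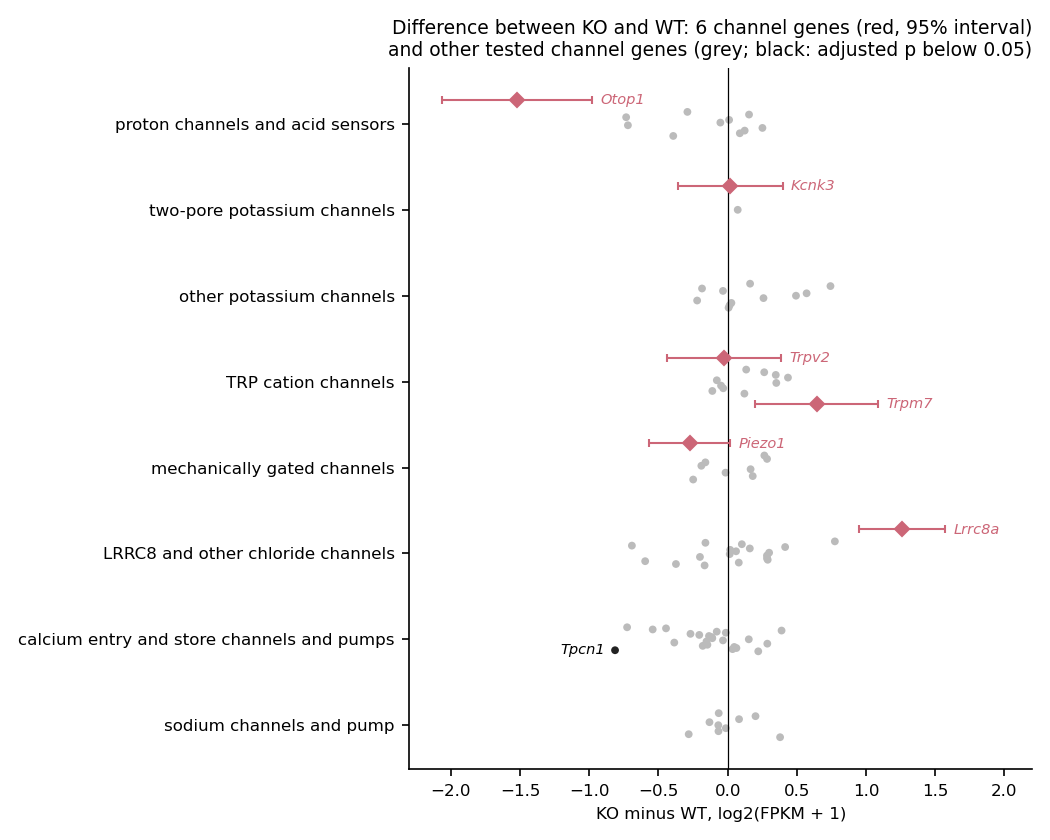
KO minus WT difference on the log2(FPKM + 1) scale for the 6 channel genes (red, with the 95% interval of the limma fit) and for the 90 other tested genes by list (grey, with Tpcn1 in black). Otop1 at −1.52 and Lrrc8a at 1.26 lie outside the span of the other genes drawn, which reaches from −0.81 to 0.78. The 6 genes were chosen with these differences known, so nothing is read from their place outside that span.

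In the list of proton channels and acid sensors, 0 of 10 tested genes passed and 3 had an unadjusted p under 0.05 (limma). Over all tested genes 19.2% had one. Slc16a1, which encodes the proton-coupled lactate transporter MCT1, was at 96.1 ± 14.5 FPKM in WT and 57.9 ± 8.37 FPKM in KO (SD, n = 3; log2 difference −0.72, limma, adjusted p 0.0625). Car2, which encodes a cytosolic carbonic anhydrase, was at 40.6 ± 8.31 and 23.7 ± 1.28 FPKM (−0.73, adjusted p 0.0644). Tmem206, the gene of the proton-activated chloride channel, was at 2.23 ± 0.135 and 1.48 ± 0.396 FPKM (−0.39, adjusted p 0.237). All KO values of these 3 genes lay below all WT values, as in 11.4% of all tested genes. Slc16a1 and Car2 passed with a filter at a mean of 5 FPKM and with array weights.

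Of 11 other potassium channel genes tested 0 passed and 3 had an unadjusted p under 0.05 (limma), against 19.2% of all tested genes. Kcna5, a voltage-gated channel gene, was at 6.09 ± 0.833 FPKM in WT and 10.96 ± 2.40 FPKM in KO (SD, n = 3; log2 difference 0.74, limma, adjusted p 0.0683). Kcnd3 was at 0.547 ± 0.107 and 1.19 ± 0.322 FPKM (0.49, adjusted p 0.142), and Kcnc2 at 0.507 ± 0.131 and 1.30 ± 0.646 FPKM (0.57, adjusted p 0.211). Among TRP channel genes outside the 6, 0 of 10 passed and 0 had an unadjusted p under 0.05, with the smallest p for Pkd2, Pkd2l2 and Trpc2 (log2 differences 0.35, 0.44 and 0.35). Among mechanically gated channel genes 0 of 8 passed and 0 had an unadjusted p under 0.05, with the smallest p for Tmc4, Tmem63b and Piezo2 (0.29, −0.25 and 0.27).

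Of 18 LRRC8 and other chloride channel genes outside the 6, 0 passed. An unadjusted p under 0.05 (limma) was found for 4, against 19.2% of all tested genes. Besides Lrrc8d these included the anoctamin genes Ano8, at 4.32 ± 1.08 FPKM in WT and 2.26 ± 0.342 FPKM in KO (SD, n = 3; log2 difference −0.69, limma, adjusted p 0.092), and Ano1, at 2.997 ± 1.02 and 5.93 ± 2.24 FPKM (0.78, adjusted p 0.177). In the calcium list 1 of 23 passed, Tpcn1, and 3 had an unadjusted p under 0.05. The next were the calcium pump genes of the endoplasmic reticulum Atp2a3, at 5.50 ± 1.08 and 3.45 ± 0.552 FPKM (−0.54, adjusted p 0.142), and Atp2a2, at 67.0 ± 11.8 and 48.6 ± 4.88 FPKM (−0.45, adjusted p 0.191). Among 9 sodium channel and pump genes 0 passed and 0 had an unadjusted p under 0.05, with log2 differences of 0.38 for Scn7a and −0.28 for Scn3b.

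For each of the 6 genes, the 3 tested genes with the highest Pearson correlation of log2(FPKM + 1) over the 6 libraries were named. These libraries form 2 groups, so a shared group difference enters each value, and no p is given. Each value is also the highest found among all tested genes over only 6 libraries, so a high r alone shows no link between genes. Nearest to Otop1 were Sdhaf2, an assembly factor gene of succinate dehydrogenase (r = 0.997), Prdm16 (0.995) and Stip1, a cochaperone gene (0.993). Nearest to Lrrc8a were Cd300lf, a myeloid receptor gene (0.997), Mir3061 (0.996), which was listed at 0 in all WT libraries, and 2700070H01Rik (0.995). Nearest to Trpm7 were Klhl28 (0.998), the centrosome gene Cep192 (0.996) and Zcchc11 (0.995). Nearest to Piezo1 were the alpha-catenin gene Ctnna1 (0.996), the growth factor gene Gdf5 (0.995) and Trak2 (0.991). Nearest to Kcnk3 were 4931414P19Rik (0.989), Serpini1 (0.985) and Phox2a (0.978), and nearest to Trpv2 were Rab20 (0.990), Samd14 (0.985) and the spindle checkpoint gene Bub1b (0.983). Serpini1, Phox2a, Rab20 and 2700070H01Rik lay near the filter of 0.5 FPKM, with WT means of 0.83, 0.603, 0.77 and 0.55 FPKM. Gdf5 had a KO mean of 0.163 FPKM.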

How the data were processed

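Total RNA of 6 libraries, 3 WT and 3 KO, was grouped by the sample titles. The deposited table gives FPKM per gene, per the file headers, rounded by the authors to 2 decimals; the submitters' processing notes name HISAT2 2.0.4, Bowtie2 2.2.5, DESeq2 and mm10, with no roles. The counting tool, annotation and strand handling are not given in the sources used here. FPKM are not counts, so log2(FPKM + 1) was fitted for the 13331 genes whose mean reached 0.5 FPKM in limma 3.58.1 (R 4.3.3; eBayes with trend, no covariates), two-sided, with Benjamini-Hochberg adjustment over all of them and a threshold of 0.05. Such log2 differences understate changes of low genes. No label says that libraries came from separate animals, so p-values measure the spread between these libraries.

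The 6 genes and all lists were chosen with earlier results of these data known. Named from each channel list were every gene past the threshold, otherwise the 3 smallest p-values, and paralogs of the 6; for each of the 6, the 3 most alike in pattern; and checks of the labels; 1 gene that this rule selects is not reported here. The lists are 8 of channels, transporters and pumps and 8 of cell type markers. Genes singled out beyond this rule (overlapping or neighbouring genes, brown fat markers, Atp2a3, Atp2a2, Cspg4, Ly6a, Hbb-b2) were named after their values were seen.

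Depth came from low values of single-transcript genes of 500 to 1300 nt, with a length offset of 50 nt: 71.7% to 75.5% of them came within 0.2 reads of a whole number, and 38.5% to 45.9% after lengths were shuffled. This covers counting only, and whole reads were not recovered for the table. On simulated data with 13331 genes, 200 of them changed by 1.5 on the log2 scale, the fit called 173 with the right sign and 3 unchanged ones. The simulated noise was independent between genes, with spreads shuffled among them. Effects shared by many genes of a library were thus absent, and error rates in the real data cannot be read from it. The alternatives tried were 2 smaller pseudocounts (0.1 and 0.01), dropping the filter or raising it to 5 FPKM, 3 scalings, eBayes without trend or robust, array weights, the replicate block and leaving out each library. Positions and promoters are RefSeq on GRCm38.p6, overlaps GENCODE vM21.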

Additional observations from a re-analysis of the deposited data

How the results depend on the processing

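Over 17 alternatives (16 for Trpv2, which a filter at 5 FPKM removed) the differences of the 6 genes moved by less than their spread between replicates, with ranges of −1.82 to −1.34 for Otop1, 1.2 to 1.35 for Lrrc8a, 0.435 to 0.826 for Trpm7, −0.306 to −0.221 for Piezo1, −0.134 to 0.151 for Kcnk3 and −0.154 to 0.079 for Trpv2. Dropping or raising the filter, changing the eBayes step and adding the replicate block cannot change these differences. Only the other alternatives could move them. The count over all genes, 295, was 35 without the filter, 3181 with array weights and 31 to 370 with 1 library left out. It was lowest without WT replicate 3, then 39 without WT replicate 2, and leaving out KO replicate 3, 2 or 1 gave 87, 89 and 121. The count of other channel genes, 1, was 0 without the filter, 3 with the filter at 5 FPKM, 15 with array weights and 0 to 1 with 1 library left out. Array weights reversed Kcnk6 (−0.033) and Trpc2 (−0.008), and neither had passed. Of 377 refits of 23 named channel genes, 355 kept direction and call, 13 gained the call and 7 lost it. Without WT replicate 1 the count over all genes rose to 370, although that fit also had fewer libraries. The causes of these changes were not tested. Among the 18 genes named for likeness, 12 by Spearman's rho and 14 by deviations from group means were still within the nearest 100. A gene counted as within if fewer than 100 genes had a higher value, so tied genes all counted. Over 6 libraries rho takes few values and ties often, which makes the count by rho lenient.

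Both groups are numbered 1 to 3, but the deviations of same-numbered libraries correlated at only 0.068, 0.043 and 0.043 over all tested genes, and the numbers were read as names only. Under the replicate block the count was 167 over all genes and 0 among the other channel genes; the differences of the 6 genes are the same by construction.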
